A study of Homo sapiens with 4 samples.

Results

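The genes described here are 10 markers used for liver cancer stem cells, namely PROM1, EPCAM, CD44, CD24, KRT19, SOX9, SOX4, ANPEP, ALDH1A1 and LGR5. They were chosen by name, as surface proteins, a keratin, transcription factors and an enzyme in use as markers of these cells, and all 10 were found among the 18806 gene symbols of the expression table. RNA was sequenced from Huh7, an established human hepatocellular carcinoma line, grown from a single clone that carries Cas9. One group of 2 libraries received a lentiviral non-targeting guide (sgNS, genotype given as WT) and the other group of 2 libraries a lentiviral METTL16 guide (sgMETTL16, here METTL16 KO, genotype given as METTL16 knockdown). All cells of both groups were selected with hygromycin B, so Cas9, guide vector and selection were shared by the controls. The number in each label was read as a replicate number, since the methods state 2 biological replicates. It could also number guides, which the labels do not settle, and the spread within METTL16 KO would then include a difference between guides. Whether these were transduced separately is not stated in the sources used here, so the p-values measure only the spread between these libraries.

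Liver cancer stem cells are tumour cells able to renew themselves and to seed new tumours. In the liver, many of their markers are also carried by fetal hepatoblasts, by bile duct cells or by progenitor cells that appear after injury, and mature hepatocytes carry few of them. The markers differ in kind: PROM1 (the CD133 antigen), EPCAM, CD44, CD24 and ANPEP (the CD13 antigen) sit at the cell surface, LGR5 is a receptor that strengthens Wnt signalling, SOX9 and SOX4 bind DNA, KRT19 is a keratin of bile duct cells and ALDH1A1 makes retinoic acid from retinaldehyde. METTL16 is an RNA methyltransferase, and the study examined it as a factor that sustains self-renewal of liver cancer stem cells. By flow cytometry, the paper reports a decrease of CD133 and EpCAM after METTL16 loss in HepG2 and Hep3B cells. That is surface protein in other lines, whereas the values below are RNA in Huh7.

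The table gives a TPM value per gene and library, a share of a total that is scaled by transcript length. Each library summed to 1000000, and 11723 to 12074 genes reached 1 TPM. Read totals cannot be had from TPM, so the sequencing depth is unknown and counting errors are not given. METTL16 was listed at 26.3 and 25.1 TPM in the sgNS libraries against 17.6 and 18.8 TPM in the METTL16 KO libraries, so its transcript was lower in both METTL16 KO libraries but far from absent. Its difference on log2(TPM + 0.1) was -0.50 (limma standard error 0.062, adjusted p of 2.4e-05). The transcript level alone does not give the extent of the knockout. METTL16 protein, which the paper examined in Huh7 by Western blot, is not analysed here. The identity of the line was checked against markers: the 10 hepatocyte and hepatoma markers summed to 18671 and 18753 TPM in sgNS and to 32424 and 31971 TPM in METTL16 KO. Of markers of other cells, COL1A1, DCN, CDH5, KDR, PTPRC and MS4A1 stayed under 1 TPM in each library. Others were present: the mesenchymal markers VIM (52.1 to 72.2 TPM over the 4 libraries) and PDGFRA (21.4 to 24.3 TPM), the endothelial marker PECAM1 (2.70 to 5.14 TPM) and the macrophage marker CD68 (2.72 to 8.86 TPM). The lysozyme gene LYZ, counted here with the leukocytes, was listed at 1510 and 1553 TPM in the sgNS libraries against 909 and 924 TPM in the METTL16 KO libraries.

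The promoter windows of 4 markers are shown because these genes cover the directions seen: CD24 and SOX4 were higher in METTL16 KO, ANPEP was lower and ALDH1A1 did not pass the test. RefSeq windows on GRCh38.p14 were found for 6 of the 10 markers (PROM1, CD44, CD24, SOX4, ANPEP and ALDH1A1), and none for EPCAM, KRT19, SOX9 and LGR5. Each line gives the 250 bases before a start, 5′ to 3′ on the strand of the gene, with motif matches in capitals. The windows lie at chr6:106975628-106975877 (minus strand) for CD24, at chr6:21593501-21593750 (plus strand) for SOX4, at chr15:89814853-89815102 (minus strand) for ANPEP and at chr9:72953054-72953303 (minus strand) for ALDH1A1. The start used for CD24 is the most upstream of 3 RefSeq starts in the table, and that of the other 3 genes is the start of the canonical GENCODE transcript.
CD24: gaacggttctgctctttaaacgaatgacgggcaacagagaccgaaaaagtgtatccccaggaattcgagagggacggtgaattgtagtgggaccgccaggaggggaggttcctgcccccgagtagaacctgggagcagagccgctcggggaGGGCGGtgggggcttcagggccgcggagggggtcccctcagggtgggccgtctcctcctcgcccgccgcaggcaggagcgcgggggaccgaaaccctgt
SOX4: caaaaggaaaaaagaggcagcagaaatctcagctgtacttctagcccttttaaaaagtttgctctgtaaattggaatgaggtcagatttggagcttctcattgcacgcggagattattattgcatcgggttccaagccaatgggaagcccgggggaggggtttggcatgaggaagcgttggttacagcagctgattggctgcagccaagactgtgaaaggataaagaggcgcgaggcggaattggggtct
ANPEP: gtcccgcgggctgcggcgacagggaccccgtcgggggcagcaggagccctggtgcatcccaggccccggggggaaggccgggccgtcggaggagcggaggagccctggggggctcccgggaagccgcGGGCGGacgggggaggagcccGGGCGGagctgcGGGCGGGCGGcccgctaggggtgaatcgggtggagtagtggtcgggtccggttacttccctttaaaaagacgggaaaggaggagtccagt
ALDH1A1: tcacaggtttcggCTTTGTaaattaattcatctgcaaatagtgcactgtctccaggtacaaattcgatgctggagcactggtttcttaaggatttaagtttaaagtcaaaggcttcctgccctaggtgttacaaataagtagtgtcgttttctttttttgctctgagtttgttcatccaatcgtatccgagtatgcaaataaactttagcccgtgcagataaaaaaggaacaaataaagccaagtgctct
The windows of CD24 and ANPEP were rich in G and C, at 65.6% and 74.0%, with 20 and 26 CpG pairs, against a median of 58.0% G and C over all 35116 windows. The SOX4 window had 48.8% and the ALDH1A1 window 38.4%. The motifs searched on both strands were the TCF/LEF core CTTTGAT, the SOX core ACAAAG, an HNF1 half-site GTTAAT, the GC box GGGCGG and the TATA box TATAAA, which occurred in 2.26%, 13.7%, 6.23%, 42.6% and 10.7% of all windows. The capitals mark GC boxes in CD24 (1 match) and ANPEP (4 matches, of which the last 2 overlap) and 1 SOX core, on the opposite strand, in ALDH1A1, whereas the SOX4 window held none of the 5 motifs. The CD24 windows not printed, at chr6:106975466-106975715 and chr6:106974040-106974289, each held 1 SOX core, and the latter also 1 GC box. The ANPEP window not printed, at chr15:89806629-89806878, held 1 HNF1 half-site. These matches describe letters in a window and were not tested as sites, and the windows and motifs were chosen after the changes of the markers were known. METTL16 is known to methylate the nonamer UACAGAGAA in RNA hairpins of MAT2A. The canonical GENCODE transcripts of the 10 markers, between 1390 and 5431 bases long, held 0 matches to it, the MAT2A transcript held 5, and 3.36% of the canonical transcripts of 19701 protein-coding genes held at least 1.

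The levels of the markers in sgNS spanned from ALDH1A1, the most abundant, to KRT19, which was hardly detected. TPM is per length, so levels of different genes can be set side by side. By mean TPM in sgNS (n = 2) the order was ALDH1A1 (934), CD24 (529), SOX9 (231), SOX4 (108), ANPEP (85.0), EPCAM (20.3), LGR5 (14.0), PROM1 (1.66), CD44 (0.33) and KRT19 (0.13). In METTL16 KO the order was the same except that CD24, at 1532 TPM, moved above ALDH1A1, at 915 TPM. In both groups the 2 libraries of neighbours in this order did not overlap. CD24 made up 27.2% and 27.8% of the summed TPM of the 10 markers in sgNS and 52.5% and 53.8% in METTL16 KO. The summed TPM was 1896 and 1951 in sgNS against 2868 and 2895 in METTL16 KO. Without CD24 it was 1380 and 1408 against 1362 and 1337.

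**Figure D1:**
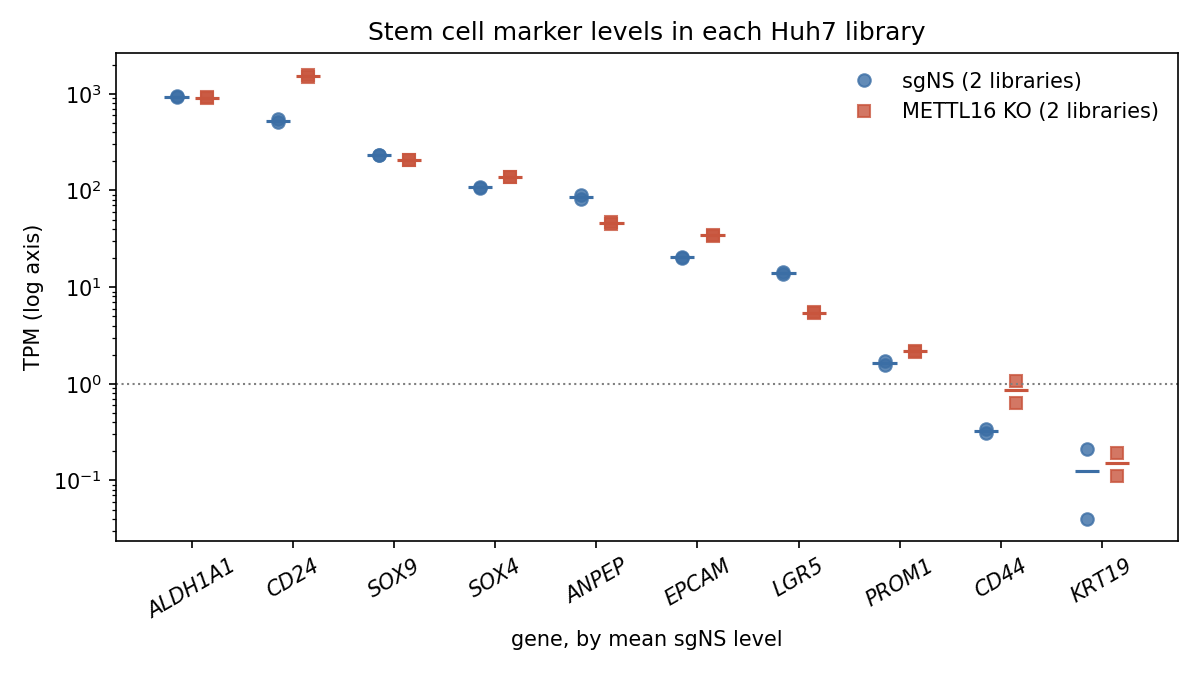
TPM of the 10 markers (log axis) in each of the 2 sgNS libraries (circles) and 2 METTL16 KO libraries (squares), with the group mean as a bar and genes ordered by their sgNS mean. The dotted line is at 1 TPM, the minimum mean for a test, and CD44 and KRT19 lie under it by their mean. CD24 rises from 515 and 543 to 1506 and 1558 TPM, while LGR5 and ANPEP drop.

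The groups were compared by limma on log2(TPM + 0.1), METTL16 KO against sgNS, among the 11971 genes whose mean reached 1 TPM, with Benjamini-Hochberg adjustment over all of them. Of the 10 markers, 8 passed this filter. At an adjusted p under 0.05, 3 markers were higher (CD24, EPCAM and SOX4), 3 were lower (LGR5, ANPEP and SOX9) and 2 did not pass (PROM1 and ALDH1A1). Over all genes tested 50.1% were called higher and 25.6% were called lower, so that a call alone did not set a marker apart from the other genes. When a log2 fold change of 1 or more in either direction was also required, 1 marker was higher (CD24) and 1 was lower (LGR5), where 7.7% of all genes were called higher and 3.77% lower. The groups did not overlap in 7 of the 8 markers tested, and in 87.4% of all genes tested. The median log2 fold change was 0.16 over the 8 markers and 0.16 over all genes, and the median absolute value was 0.56 against 0.36. Of all genes 5999 were called higher and 3065 lower, and after median-ratio scaling, which removed the median of 0.16, 4359 were higher and 4375 lower, so the difference of each tested marker from it is also given.

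**Figure D2:**
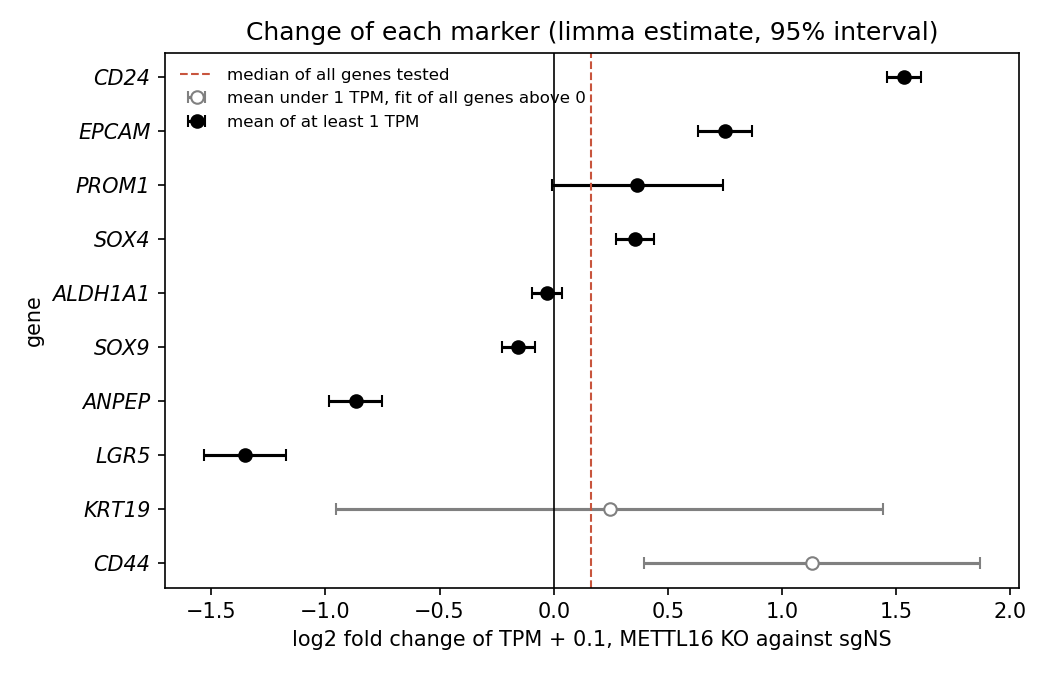
Log2 fold change of TPM + 0.1 in METTL16 KO against sgNS for each marker, with its 95% interval from limma (n = 2 libraries per group). Filled points are the 8 markers with a mean of at least 1 TPM, open grey points are CD44 and KRT19 in a fit of all genes above 0, and the dashed line is the median of all genes tested, 0.16. CD24 lies at 1.53 and LGR5 at -1.35, while the intervals of PROM1, ALDH1A1 and KRT19 include 0.

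Of the surface markers, CD24 and EPCAM rose and ANPEP fell. CD24 encodes a small glycoprotein anchored in the outer membrane by a lipid and is a ligand of the inhibitory receptor Siglec-10. It was listed at 515 and 543 TPM in the sgNS libraries against 1506 and 1558 TPM in the METTL16 KO libraries. Both METTL16 KO libraries lay far above both sgNS libraries, and the ratio of the means was 2.90. Its log2 fold change was 1.53 (limma standard error 0.033, 95% interval 1.46 to 1.61, adjusted p of 4.0e-11), or 1.37 above the median gene, at percentile 97.0 of all genes tested. CD24 lies on the minus strand of chromosome 6 (GRCh38, 106969831 to 106975627). RefSeq lists 5 CD24 pseudogenes, between which and CD24 reads could be split, so its level is uncertain to that extent. Bulk RNA cannot tell a change in the number of cells with a transcript from a change in its amount per cell. This holds here and for every marker below.

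EPCAM encodes an adhesion protein of epithelial cells whose inner part can be cut off and act in the nucleus with beta-catenin. Its level was 20.2 and 20.5 TPM in sgNS and 34.5 and 34.0 TPM in METTL16 KO. The groups did not overlap and the libraries of each group lay within 1 TPM of each other. The log2 fold change of EPCAM was 0.75 (limma standard error 0.054, adjusted p of 3.4e-07), or 0.59 above the median gene. EPCAM lies on the plus strand of chromosome 2 from 47345158 to 47387601 (GRCh38).

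PROM1 encodes a glycoprotein of membrane protrusions whose CD133 epitope is a widely used marker of these cells. It was near the filter, at 1.74 and 1.58 TPM in the sgNS libraries against 2.13 and 2.20 TPM in the METTL16 KO libraries. Both METTL16 KO values were above both sgNS values, but the difference did not pass the test. The log2 fold change of PROM1 was 0.37 with a 95% interval from -0.01 to 0.74 (limma adjusted p of 0.070), 0.20 above the median gene. Limma without a mean-variance trend called it, with an adjusted p of 0.0066, and quantile normalization brought it to 0.07. EPCAM was 11.6 and 13.0 times as abundant as PROM1 in sgNS and 16.18 and 15.46 times in METTL16 KO. PROM1 lies on the minus strand of chromosome 4 from 15963076 to 16084378.

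CD44, the main receptor for hyaluronan, was listed at 0.34 and 0.31 TPM in the sgNS libraries against 1.07 and 0.64 TPM in the METTL16 KO libraries. Its mean was under 1 TPM, so it was not among the genes tested. The METTL16 KO libraries were both above the sgNS libraries and also differed from each other. In a fit of all 16350 genes above 0 in at least 1 library, CD44 had a log2 fold change of 1.13 (limma standard error 0.28, adjusted p of 0.023). At these levels the added 0.1 TPM weighs on the estimate. CD44 lies on the plus strand of chromosome 11 from 35138882 to 35232402.

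ANPEP encodes aminopeptidase N, a zinc enzyme on the cell surface that trims peptides outside the cell. It was listed at 88.8 and 81.3 TPM in the sgNS libraries against 45.3 and 47.7 TPM in the METTL16 KO libraries. The level in METTL16 KO was 0.55 times that in sgNS, with no overlap between the groups. ANPEP fell by 0.87 on the log2 scale (limma standard error 0.053, adjusted p of 9.8e-08), which is 1.03 below the median gene (a difference of -1.03). The gene lies on the minus strand of chromosome 15 from 89784895 to 89815401.

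LGR5, the R-spondin receptor that marks stem cells of several epithelia and is itself a target of Wnt signalling, fell most of the markers tested. It was listed at 13.7 and 14.4 TPM in the sgNS libraries against 5.39 and 5.49 TPM in the METTL16 KO libraries. The libraries of each group were close to each other and the groups far apart, with a ratio of 0.39 between the means. LGR5 fell by 1.35 on the log2 scale (limma standard error 0.082, 95% interval -1.53 to -1.17, adjusted p of 8.9e-08), at percentile 1.69 of all genes tested and with a difference of -1.52 from the median gene. Its relative LGR4, which also binds R-spondins, went the other way, from 143 and 145 TPM to 213 and 212 TPM, and LGR6 was listed at 0 in all 4 libraries. LGR4 was thus 10.5 and 10.0 times as abundant as LGR5 in sgNS and 39.6 and 38.7 times in METTL16 KO. LGR5 lies on the plus strand of chromosome 12 from 71439798 to 71586310.

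The 2 transcription factors moved in opposite directions and by less than the surface markers that were called. SOX9, which marks bile duct cells and liver progenitors, was listed at 230 and 231 TPM in the sgNS libraries against 207 and 207 TPM in the METTL16 KO libraries. SOX4, of another subgroup of the SOX family, was listed at 108 and 107 TPM in the sgNS libraries against 139 and 137 TPM in the METTL16 KO libraries. Neither gene had overlapping groups. SOX9 fell by 0.16 on the log2 scale (limma standard error 0.032, adjusted p of 0.0012), a small change that was 0.32 below the median gene (a difference of -0.32). The log2 fold change of SOX4 was 0.36 (limma standard error 0.037, adjusted p of 6.1e-06), 0.19 above the median gene. The level of SOX9 was 2.13 and 2.16 times that of SOX4 in sgNS and 1.50 and 1.51 times in METTL16 KO. SOX9 lies on chromosome 17 from 72121020 to 72126416 and SOX4 on chromosome 6 from 21593751 to 21598619, both on the plus strand.

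ALDH1A1 is among the enzymes that contribute to the dye test for aldehyde dehydrogenase activity, which is used to sort stem-like cells. It was listed at 917 and 952 TPM in the sgNS libraries against 928 and 903 TPM in the METTL16 KO libraries. The groups overlapped. The log2 fold change of ALDH1A1 was -0.03 with a 95% interval from -0.10 to 0.04 (limma adjusted p of 0.39), and its difference from the median gene was -0.19. The value moved with scaling. After median-ratio scaling the value was -0.20 and passed the test (limma adjusted p of 2.3e-04), and after quantile normalization it was 0.03. ALDH1A1 lies on the minus strand of chromosome 9 from 72900671 to 73080442. KRT19 was listed at 0.04 and 0.21 TPM in the sgNS libraries against 0.11 and 0.19 TPM in the METTL16 KO libraries, with overlapping groups. Such values allow no statement on a change, and in the fit of all genes above 0 the 95% interval of its log2 fold change ran from -0.95 to 1.44. KRT19 lies on the minus strand of chromosome 17 from 41523617 to 41528308.

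**Figure D3:**
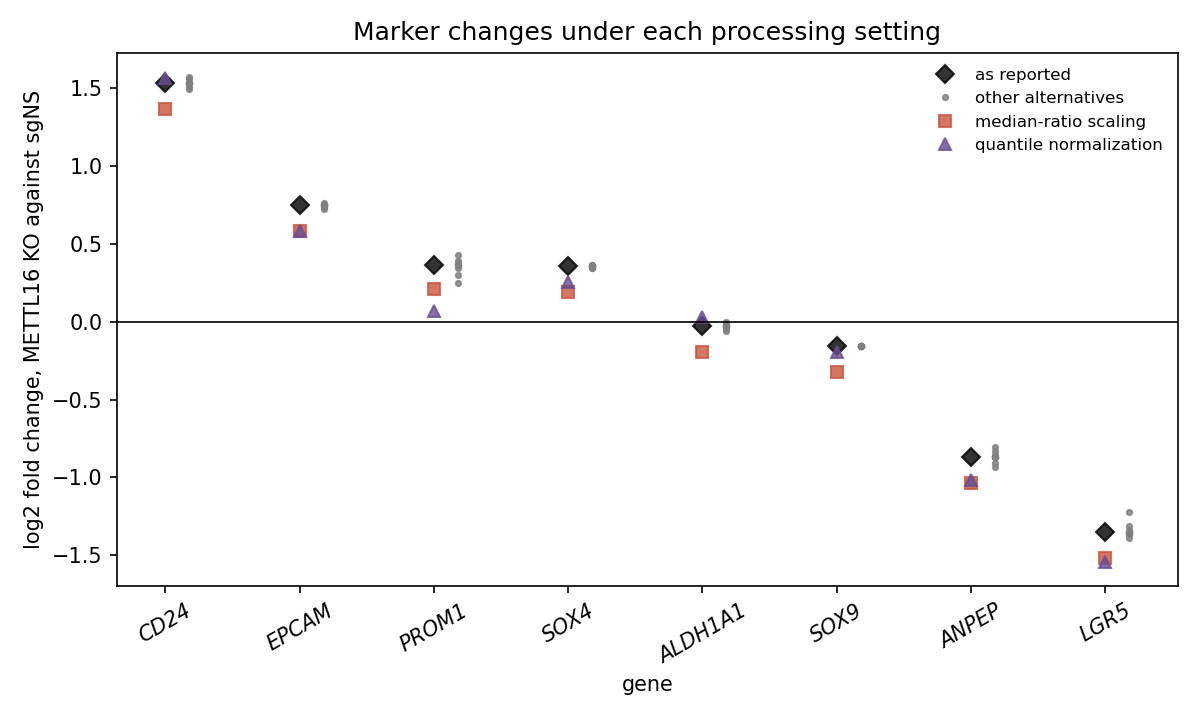
Log2 fold change in METTL16 KO against sgNS of the 8 markers tested, as reported (diamonds), after median-ratio scaling (squares), after quantile normalization (triangles) and under the other alternatives (dots, which include each library left out). CD24 stays between 1.37 and 1.57 and LGR5 between -1.54 and -1.22, while ALDH1A1 changes sign and PROM1 lies between 0.07 and 0.43.

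Further markers of liver cancer stem cells and progenitors were read from a list of 22 genes, of which 14 were tested. Of these 8 were higher, 3 were lower and 3 did not pass, and their median log2 fold change was 0.74 against 0.16 over all genes. Over all genes tested 50.1% were called higher and 25.6% lower. The counts of this list and of each list below stand beside these shares, and no list was tested as a set. Over the 10 hepatocyte and hepatoma markers, which also include AFP and GPC3 of this list, the median was 0.72. AFP, the fetal serum protein that hepatoblasts and many hepatomas secrete, was listed at 1737 and 1793 TPM in the sgNS libraries against 10387 and 10197 TPM in the METTL16 KO libraries (log2 fold change 2.54, limma adjusted p of 3.1e-13). CXCR4, a chemokine receptor, was listed at 0.27 and 0.46 TPM against 1.92 and 1.79 TPM, so that it passed the filter on the mean only through METTL16 KO and had to differ. SPP1, the secreted ligand osteopontin, fell by 1.96 on the log2 scale, IGF2BP3, an oncofetal RNA-binding protein, fell by 0.88 and the integrin ITGA6 fell by 0.46. THY1, KIT, CD34, KRT7, NCAM1 and CACNA2D1, which are used as markers too, stayed under 1 TPM in each library.

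Among 12 pluripotency and self-renewal factors, 11 were in the table and 8 were tested. Of these 5 were higher, 1 was lower and 2 did not pass, with a median log2 fold change of 0.53. With median-ratio scaling 5 were higher and 3 lower. KLF4 rose from 2.02 and 1.91 TPM to 18.36 and 16.05 TPM, SALL4, a factor of fetal liver and of embryonic stem cells, from 5.32 and 4.91 TPM to 9.70 and 10.9 TPM, and PROX1, needed for hepatoblasts to spread in the embryo, from 111 and 118 TPM to 209 and 202 TPM. EZH2, the methyltransferase of the Polycomb group, fell by 0.54 on the log2 scale. NANOG, SOX2 and LIN28A, core factors of pluripotent cells, were under 1 TPM in each library.

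LGR5 and EPCAM are both tied to Wnt signalling, in which beta-catenin and TCF/LEF factors drive target genes. Of 29 Wnt receptors and beta-catenin targets, 26 were tested, and 11 were higher, 10 lower and 5 did not pass, and the median log2 fold change was 0.04. After median-ratio scaling 10 were higher and 13 lower and the median was -0.13, so the list moved both ways under either scaling. LEF1, a DNA-binding partner of beta-catenin, was listed at 1.47 and 1.65 TPM in the sgNS libraries against 3.65 and 4.49 TPM in the METTL16 KO libraries (log2 fold change 1.32), the receptor FZD7 rose by 1.13 and TNFRSF19 by 1.10 on that scale. The co-receptor LRP5 fell by 0.68, the feedback inhibitor AXIN2 fell by 0.63 and ZNRF3, which removes Wnt receptors from the surface, fell by 0.62. Of 9 relatives of prominin and LGR5 only 3 were tested, with 1 higher, 1 lower and 1 that did not pass. LGR4 had a log2 fold change of 0.56, and HDAC6, a deacetylase that binds CD133, fell by 0.52.

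SOX9 is a known target of Notch and of YAP in liver progenitors. Of 18 Notch genes 17 were in the table and 13 were tested, of which 9 were higher and 4 were lower, and the median log2 fold change was 0.63. The target HEY1 rose from 1.39 and 1.17 TPM to 10.1 and 10.3 TPM, the ligand DLL4 from 0.54 and 0.76 TPM to 3.83 and 4.53 TPM, and the ligand JAG1 from 36.5 and 35.0 TPM to 151 and 151 TPM. DLL4 and HEY2, both counted among the 9, passed the filter on the mean only through METTL16 KO and so had to differ. NOTCH3 fell by 1.68 on the log2 scale, JAG2 fell by 1.00 and NRARP, a feedback inhibitor, fell by 0.45. Of 23 Hippo pathway genes and YAP targets 22 were tested, of which 16 were higher, 5 were lower and 1 did not pass, with a median of 0.69. For both lists the shares over all genes tested were 50.1% higher and 25.6% lower, and the median was 0.16. The targets ANKRD1 (log2 fold change 2.84), TGFB2 (1.77) and CTGF (1.75) rose most. YAP1 itself fell by 0.31, TEAD2, one of its DNA-binding partners, fell by 0.38 and AMOTL1 fell by 0.39.

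Genes that act with the surface markers were read from 3 lists. Of 14 genes that bind or cut EPCAM, 13 were tested, 9 were higher and 4 were lower (2 without METTL16 KO replicate 2), with a median log2 fold change of 0.46. LEF1 (1.32), FHL2 (1.12), which carries the freed part of EPCAM in the nucleus, and CLDN7 (0.99), a claudin that binds EPCAM, rose most, while TSPAN8 fell by 0.46, the presenilin PSEN2 fell by 0.43 and CTNNB1, which encodes beta-catenin, fell by 0.28. Of 18 ligands, partners and splicing regulators of CD44, 13 were tested, 4 were higher, 5 were lower and 4 did not pass, with a median of -0.01, and with median-ratio scaling 3 were higher and 8 lower. HAS2, which makes hyaluronan, was listed at 2.19 and 2.27 TPM in the sgNS libraries against 12.0 and 10.9 TPM in the METTL16 KO libraries. SRGN, a proteoglycan that binds CD44, had a log2 fold change of 0.97 and EZR, which links CD44 to actin, of 0.40. Besides SPP1, which is also a CD44 ligand, SLC7A11, the cystine transporter that a CD44 variant holds at the surface, fell by 0.84 and the protease MMP14 fell by 0.52. ESRP1, which promotes the variant exons of CD44, was under 1 TPM in each library, while its relative ESRP2, with a like role, was listed at 12.0 and 9.81 TPM against 9.99 and 9.62 TPM and did not pass. Of 11 partners of CD24 and relatives of ANPEP, 7 were tested, 4 were higher and 3 were lower, with a median of 0.35. The peptidases ERAP1 (0.97), DPP4 (0.85) and LNPEP (0.39) rose, whereas XPNPEP1 fell by 0.62, the kinase SRC fell by 0.61 and NPEPPS fell by 0.25.

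Around ALDH1A1, 24 aldehyde dehydrogenases and retinoid genes were listed and 19 were tested. Of these 8 were higher, 7 were lower and 4 did not pass, with a median log2 fold change of -0.03, and after median-ratio scaling 8 were higher and 9 lower. ALDH2, the mitochondrial enzyme that clears acetaldehyde, went from 133 and 128 TPM in the sgNS libraries to 37.4 and 39.6 TPM in the METTL16 KO libraries (log2 fold change -1.76, limma adjusted p of 1.6e-10). ALDH3B1 fell by 1.01 and ALDH7A1 fell by 0.97. RARB, a retinoic acid receptor that retinoic acid itself induces, rose from 1.56 and 1.61 TPM to 8.63 and 8.74 TPM, RDH10, which makes retinaldehyde, had a log2 fold change of 1.32 and ALDH8A1 of 1.22, but ALDH8A1 was under 1 TPM in both sgNS libraries, passed the filter only through METTL16 KO and had to differ. The close relatives ALDH1A2 and ALDH1A3, which also make retinoic acid, were under 1 TPM in each library. Of 17 other SOX genes 5 were tested, of which SOX5 (0.29) and SOX6 (0.19) were higher, SOX12 (-0.49) and SOX13 (-0.29) were lower and SOX15 did not pass. After either median-ratio scaling or quantile normalization 0 of them were higher and 2 lower, and without METTL16 KO replicate 1 also 0 were higher, or 1 without METTL16 KO replicate 2.

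**Figure D4:**
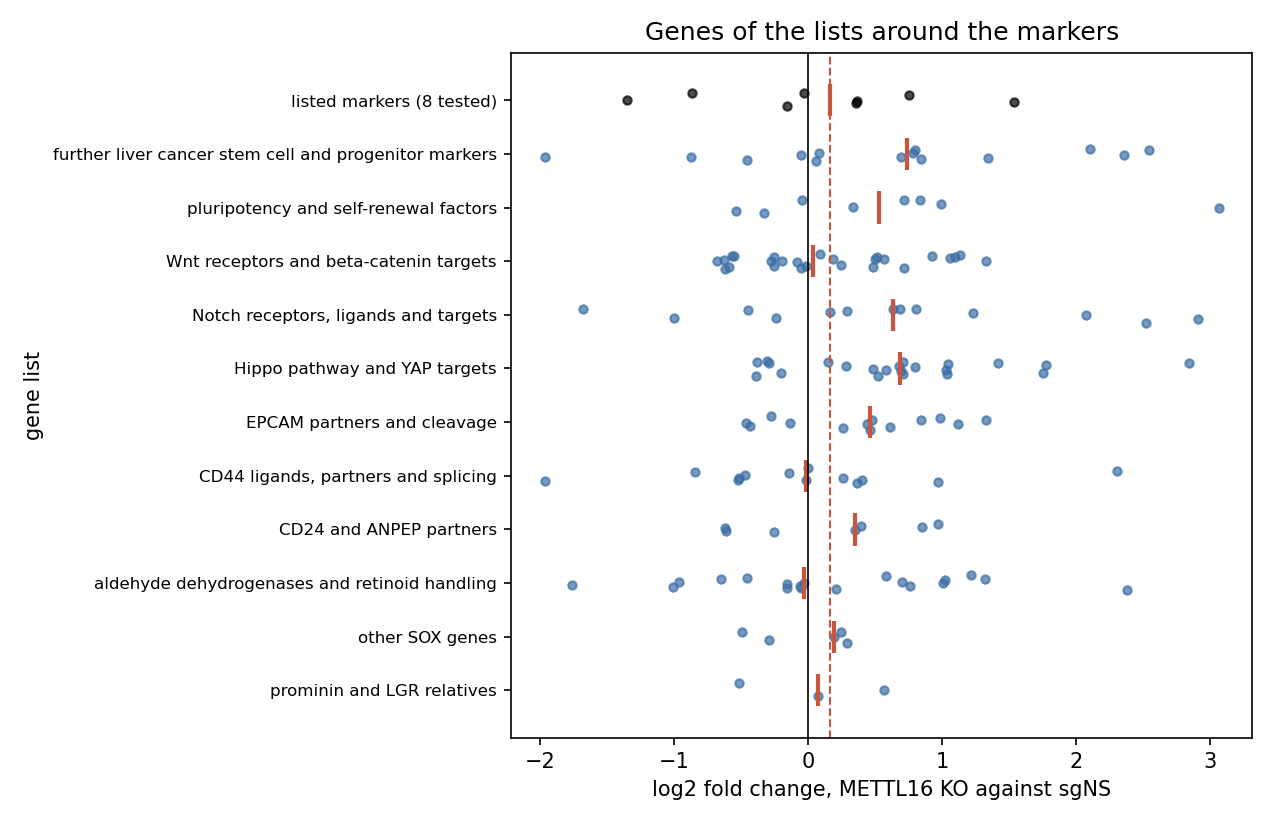
Log2 fold change in METTL16 KO against sgNS of each gene tested (points) in the 8 markers tested and in 11 lists around them, with the median of each list as a bar and the median of all genes as a dashed line. The points of the markers spread to both sides of 0, with a median of 0.16, and the highest list median is that of the further markers, 0.74. Some genes, such as MYC, LEF1 and SPP1, belong to more than 1 list.

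Markers of other cell types are given beside these groups. Of 8 bile duct markers 6 were tested, 4 were higher, 1 was lower and 1 did not pass, and their summed TPM was 144 and 128 in sgNS against 181 and 185 in METTL16 KO, with KRT7 and CFTR under 1 TPM throughout. The 10 mesenchymal markers summed to 78.1 and 77.5 TPM against 101 and 97.3 TPM, most of which was VIM, and of 3 tested VIM was higher, PDGFRB, which passed the filter only through sgNS, was lower and PDGFRA did not pass. Of 6 leukocyte markers 2 were tested, of which CD68 was higher and LYZ lower. The 5 endothelial markers, of which PECAM1 alone was tested and was lower and KDR and TEK were at 0, summed to 5.15 and 4.76 TPM against 3.13 and 2.73 TPM. The 10 hepatocyte and hepatoma markers were all tested, and 8 were higher and 2 were lower. Their part in the differences of the stem cell markers was not tested.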

How the data were processed

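RNA-seq libraries of total RNA from 4 Huh7 samples were sequenced in paired-end mode. According to the methods, the authors used Cutadapt for trimming, STAR for mapping (GRCh38) and RSEM for gene levels, with versions and annotation not given in the sources used here. The labels mention both ribosomal RNA removal and an mRNA kit. The deposited values, called RPKM in the methods, sum to 1000000 per library and were treated as TPM, rounded to 2 decimals. TPM keeps no depth, so no count test was run. A share of a fixed total moves when abundant genes change.

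Genes with a mean of at least 1 TPM were analysed as log2(TPM + 0.1) by limma 3.58.1 (lmFit, eBayes with trend) in R 4.3.3, two-sided, with Benjamini-Hochberg adjustment over all 11971 genes. All fold changes refer to log2(TPM + 0.1) and are too small for low genes. An exact permutation test of 2 libraries against 2 cannot go below 0.333. The model was checked on simulated data. The markers and lists were chosen with earlier results of these data known. From each list up to 3 genes per direction with the largest change were named, among those called whose groups do not overlap, and others only for their level or as relatives of a marker. Some genes that are counted in the lists are not reported here by name. Same-numbered libraries did not deviate together (correlation of -0.044 across genes), so no block was used. Alternatives were other pseudocounts, filters, scalings, no trend, a replicate block and each library left out. Positions are from GENCODE v44, and promoters from RefSeq. Python 3.11.15 and matplotlib 3.10.9 were used. No sample was left out.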

Additional observations from a re-analysis of the deposited data

How the results depend on the processing

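The number of markers called was 6 as reported and between 6 and 7 under the 12 alternatives, with 3 or 4 higher and 3 or 4 lower. With the replicate block it was 6, and the block changed no call of a marker. It leaves 1 residual degree of freedom, and the replicate numbers do not pair the libraries by any label. CD24, EPCAM, SOX4, SOX9, LGR5 and ANPEP kept their direction and passed the threshold under each of the 12 alternatives, those that leave out a library included, in which the lone library of a group is assumed to vary like the other group. ALDH1A1 changed sign with quantile normalization, to 0.028, and passed the threshold with median-ratio scaling, at -0.195. PROM1 passed without the trend only, among the alternatives that test it. With all genes above 0 the additional marker called was CD44. For these shifts, the cause was not tested. METTL16 stayed between -0.68 and -0.45. The 11 lists held 137 distinct genes tested, of which 116 were called as reported and 103 to 123 under the alternatives, the lowest with a minimum mean of 5 TPM, which tests fewer genes. Of the 137, 73 were called higher and 43 lower as reported, beside 50.1% higher and 25.6% lower over all genes tested. In the EPCAM list 2 genes in place of 4 were lower without METTL16 KO replicate 2, and of the other SOX genes 0 in place of 2 were higher without METTL16 KO replicate 1 and 1 without METTL16 KO replicate 2. Over all genes, 5999 were called higher and 3065 lower as reported, against 4359 and 4375 with median-ratio scaling. The count past the fold threshold was 922 higher and 451 lower as reported, 586 and 698 with quantile normalization, 1555 higher with all genes above 0 and 575 higher with a minimum mean of 5 TPM. Depth is unknown, so the precision of the low values of PROM1, CD44 and KRT19 cannot be given.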

Other observations

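The genes whose pattern over the 4 libraries was most like that of CD24, by Euclidean distance between log2(TPM + 0.1) profiles centred on sgNS, were ACSM2A (distance 0.030), BMP2 (0.041) and BAGE4 (0.047). BMP2, a secreted growth factor, was listed at 67.2 and 69.1 TPM in the sgNS libraries against 191 and 198 TPM in the METTL16 KO libraries. ACSM2A and BAGE4 have near-identical copies, so their values are uncertain. Those most like LGR5 were PARVB (0.047), SPRED1 (0.048) and CTSA (0.056). SPRED1, an inhibitor of Ras signalling, was listed at 8.37 and 8.91 TPM against 3.22 and 3.27 TPM, and CTSA, a lysosomal protease, at 94.9 and 96.1 TPM against 37.9 and 37.9 TPM. With 4 libraries in 2 groups, such likeness rests mostly on a similar fold change.

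The genes that start within 1 Mb of a marker were looked up after the changes were seen. The counts near each marker stand beside 50.1% higher and 25.6% lower over all genes tested, where the median log2 fold change was 0.16. Of the 8 genes tested near CD24, 4 were higher and 1 was lower, and their log2 fold changes had a median of 0.17, so they did not stand apart from all genes. PRDM1, a transcriptional repressor, rose most of these. It was listed at 0.25 and 0.33 TPM in the sgNS libraries against 5.52 and 5.54 TPM in the METTL16 KO libraries. PRDM1 is counted among the 4, but it passed the filter on the mean only through METTL16 KO and so had to differ. Of the 7 genes near LGR5, 3 were higher and 3 lower, with a median of 0.09 and a range from -0.46 to 0.88. LGR5 at -1.35 lay below all of them, but at percentile 1.69 it lay below nearly all genes tested, so this does not set the region apart. Of the 20 genes near ANPEP, 8 were higher and 3 lower, with a median of 0.07 and a lowest value of -0.43. Of the 12 near EPCAM, 3 were higher and 4 lower, with a median of -0.04 and a highest value of 0.53. Of the 6 near PROM1, 2 were higher and 3 lower, with a median of -0.06 and a highest value of 0.82, that of FAM200B. The lowest was CD38, a surface enzyme, which went from 13.5 and 14.9 TPM to 3.28 and 3.07 TPM.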
